A study of Mus musculus with 6 samples.

Results

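The BCL2 family genes described here are 10 genes chosen by name, Bcl2, Mcl1, Bcl2l1, Bax, Bak1, Bcl2l11, Bbc3, Bad, Bid and Bmf, out of 55487 genes in each deposited table. All 10 were found by symbol, and all 10 passed the filter on low counts. The libraries are poly(A) RNA of cells labelled naive CD4+ T cells from the spleen of wild-type (WT) C57BL6/J mice. 3 libraries came from mice with no treatment and 3 from mice given Rapamycin in vivo, a drug that inhibits the kinase mTOR. Dose, duration, age and sex are not given in the labels used here, which also do not say whether each library is 1 mouse or a pool.

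Proteins of the BCL2 family decide whether the outer membrane of the mitochondrion stays closed. The guardians BCL2, MCL1 and BCL-xL (the product of Bcl2l1) hold the effectors BAX and BAK in check, and BAX and BAK form the pores that release cytochrome c. The BH3-only proteins BIM (Bcl2l11), PUMA (Bbc3), BAD, BID and BMF carry a short helix, the BH3 domain, that fills the groove of the guardians. In resting T cells interleukin 7 is known to sustain BCL2, and BIM is a main trigger of death when cytokine is withdrawn.

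The stretch that the 10 genes have in common is the one coding for the BH3 core, in which a leucine and, 5 residues later, an aspartate are kept. It is shown because every member carries it and because the BH3 helix of the BH3-only proteins is what fills the groove of the guardians. Each line gives 42 bases of the coding sequence of the gene's principal transcript, 5′ to 3′ (GENCODE vM21, GRCm38), and the capitals mark the codons of the leucine and the aspartate.
Bcl2: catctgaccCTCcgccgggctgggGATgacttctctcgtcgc
Mcl1: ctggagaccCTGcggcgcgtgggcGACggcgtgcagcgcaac
Bcl2l1: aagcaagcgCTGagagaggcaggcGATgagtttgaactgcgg
Bax: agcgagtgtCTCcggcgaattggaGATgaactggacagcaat
Bak1: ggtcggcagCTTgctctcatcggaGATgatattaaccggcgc
Bcl2l11: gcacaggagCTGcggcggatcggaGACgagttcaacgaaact
Bbc3: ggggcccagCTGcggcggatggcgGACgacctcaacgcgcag
Bad: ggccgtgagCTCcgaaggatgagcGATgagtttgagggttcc
Bid: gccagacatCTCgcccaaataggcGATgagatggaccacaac
Bmf: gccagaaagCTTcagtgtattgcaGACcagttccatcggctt
The codon before the aspartate codes for glycine in 7 of the 10 genes, including all guardians and both effectors. It codes for alanine or serine in 3, which are the BH3-only genes Bbc3, Bad and Bmf. The stretch lies within 1 exon in all 10 genes.

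Rapamycin went with higher RNA of Bcl2, Bcl2l11, Bbc3, Bmf and, by a small step, Mcl1, and with lower RNA of Bcl2l1, Bak1 and Bad. Bax and Bid were not called in either direction. Genes on both sides of the balance were thus among the higher ones: of 3 guardians 2 rose and 1 fell, of 5 BH3-only genes 3 rose and 1 fell, and of 2 effectors 0 rose and 1 fell. In all, 8 of 10 members were called at an adjusted p under 0.05 by edgeR's quasi-likelihood test, beside 47.4% of the 11950 genes tested. The 5 called higher stand beside 24.1% of all genes and the 3 called lower beside 23.3%. The 2 groups of libraries did not overlap in CPM (read counts relative to the scaled library size) for the same 8 members, beside 53.8% of all genes. The median log2 fold change of the 10 members was 0.026, and that of all genes tested was −0.012. The RNA is bulk RNA, in which fewer cells of a type and less RNA per cell cannot be told apart. Markers of other cell types, given at the end, also moved with treatment.

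**Figure D1:**
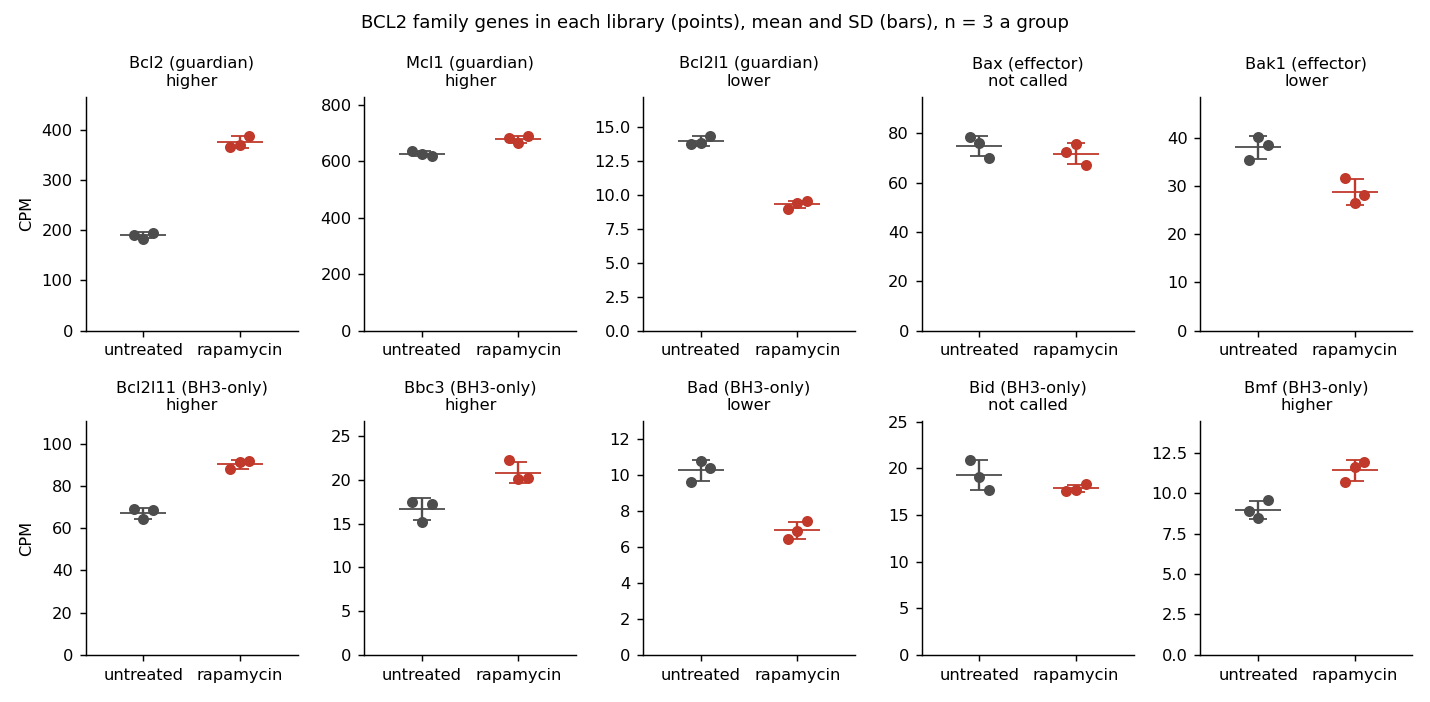
Expression in CPM (y axis, starting at 0) of each of the 10 genes in the 3 untreated and 3 rapamycin libraries (points), with mean and SD (bars); the word under each name is the call by edgeR. The rapamycin libraries of Bcl2 sit between 366 and 388 CPM, above all untreated ones at 183 to 195 CPM, while those of Bax and Bid overlap the untreated ones.

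Among the guardians, Bcl2 (ENSMUSG00000057329, chr1:106538178-106714274 on mm10, minus strand) was at 191, 183 and 195 CPM in the untreated libraries and at 366, 370 and 388 CPM in the rapamycin libraries. Every rapamycin library was far above every untreated one, and the spread within a group was small beside the gap. Group means were 189.7 ± 5.91 and 375 ± 11.8 CPM (SD, n = 3 each), and the log2 fold change was 0.98 ± 0.030 (SE), or 1.98-fold, with an edgeR adjusted p of 3.35e-36. This was the largest rise of the 10. It was called under all 20 alternatives to the processing, with log2 fold changes between 0.71 and 1.05. An antisense gene, D630008O14Rik, lies across part of Bcl2 and stayed under 0.765 CPM. Gm37053, which shares 2087 bases with Bcl2 on the same strand, reached 1.31 CPM. The count of Bcl2 was not whole in 5 libraries.

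Mcl1 (ENSMUSG00000038612, chr3:95658788-95663176, plus strand), whose short-lived protein T cells need throughout life, was the most abundant member. It was at 635, 625 and 617 CPM without treatment and at 682, 665 and 689 CPM with rapamycin. The groups did not overlap, but the lowest treated library was only slightly above the highest untreated one. The log2 fold change was 0.12 ± 0.021, or 1.08-fold (edgeR adjusted p = 7.34e-06). A correction for transcript length, described further on, left 0.039 and ended the call (adjusted p = 0.148), and limma on log2(TPM + 1) gave 0.21 (adjusted p = 0.00174).

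Bcl2l1 (ENSMUSG00000007659, chr2:152780668-152831728, minus strand) codes for BCL-xL, a guardian that is usually induced when T cells are activated. Here it moved the other way from Bcl2. Its level was 13.7, 13.8 and 14.3 CPM in untreated and 8.95, 9.36 and 9.50 CPM in rapamycin libraries. The groups were well apart, although the gene was covered by only 82 to 158 reads a library. It changed by −0.59 ± 0.13 on the log2 scale (edgeR adjusted p = 2.18e-04), a fall not set apart from that of Bad, given further on. It was called under all 20 alternatives, with values between −0.63 and −0.44.

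Of the effectors, Bax (ENSMUSG00000003873, chr7:45461697-45466898, minus strand) did not pass the test. It was at 78.4, 76.1 and 70.2 CPM without treatment and at 72.4, 75.6 and 67.2 CPM with rapamycin. The groups overlapped, and the log2 fold change of −0.064 ± 0.055 had an edgeR adjusted p of 0.36. The sign depended on the scale: it was 0.023 on log2(TPM + 1), and the length correction turned it to 0.19, which was called (adjusted p = 0.00379). At 952 bases Bax was the shortest member.

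Bak1 (ENSMUSG00000057789, chr17:27019810-27029009, minus strand), which codes for the other pore former BAK, was at 35.4, 40.1 and 38.4 CPM without treatment. With rapamycin it was at 31.7, 26.4 and 28.2 CPM, below every untreated library. This gave a log2 fold change of −0.40 ± 0.082 (edgeR adjusted p = 4.54e-05). The gene Ggnbp1 spans all of Bak1 on the opposite strand and was at 3.90 to 7.73 CPM. In all 6 libraries the count of Bak1 was not whole, so the authors' estimates share some of its reads with other genes. It was not past a test against a fold of 1.2 (adjusted p = 0.0804).

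Among the BH3-only genes, Bcl2l11 (ENSMUSG00000027381, chr2:128126038-128162547, plus strand), the gene of BIM, was the most abundant. It was at 68.9, 64.2 and 68.5 CPM in untreated and at 88.0, 91.4 and 91.7 CPM in rapamycin libraries. The groups were clearly apart. The change was 0.43 ± 0.052 on the log2 scale, or 1.34-fold (edgeR adjusted p = 3.07e-10). It was called under all 20 alternatives, with values from 0.31 to 0.64, the highest on log2(TPM + 0.1). The deposited transcript length, which the authors' tool averages over isoforms by their estimated share, was 4146, 4078 and 4000 bases without treatment and 3549, 3904 and 3842 bases with rapamycin. The rapamycin libraries were all shorter, so the estimated isoform mix differed between the groups as well.

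Bbc3 (ENSMUSG00000002083, chr7:16308393-16318205, plus strand), the gene of PUMA and a known target of p53 and of FOXO factors, was at 17.5, 15.2 and 17.3 CPM without treatment and at 22.3, 20.1 and 20.2 CPM with rapamycin. All treated libraries were above all untreated ones. The log2 fold change was 0.32 ± 0.11 (edgeR adjusted p = 0.0111), and 0.47 with the length correction (adjusted p = 3.54e-04). The call rested in part on single libraries: it was lost without untreated replicate 2 (0.26, adjusted p = 0.0790) and without rapamycin replicate 1 (0.27, adjusted p = 0.0652). With offsets from the deposited effective lengths it was also lost (0.27, adjusted p = 0.149).

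Bmf (ENSMUSG00000040093, chr2:118528757-118549687, minus strand), whose protein is otherwise held at the cytoskeleton, was at 8.93, 8.47 and 9.56 CPM without treatment and at 10.7, 11.6 and 11.9 CPM with rapamycin. The CPM did not overlap, but each library held only 89 to 103 reads of it. The log2 fold change of 0.35 ± 0.14 was close to the threshold (edgeR adjusted p = 0.0412). The call was lost under 14 of 20 alternatives, among them DESeq2 (adjusted p = 0.119) and leaving out untreated replicate 1 or 2 or rapamycin replicate 2 or 3, with values from 0.30 to 0.34.

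Bad (ENSMUSG00000024959, chr19:6941861-6951899, plus strand), whose protein is switched off by growth factor kinases, was the BH3-only gene that fell. It was at 9.62, 10.7 and 10.4 CPM in untreated and at 6.44, 6.88 and 7.42 CPM in rapamycin libraries. The groups did not overlap. Gpr137 shares 620 bases with Bad on the opposite strand and was at 5.46 to 9.02 CPM, about as abundant as Bad, and the count of Bad was not whole in 4 libraries. Bad changed by −0.57 ± 0.16 on the log2 scale (edgeR adjusted p = 0.00207). With the length correction it was −0.35 and not called (adjusted p = 0.0759), and neither was it called on log2(TPM + 1), at −0.30 (adjusted p = 0.0685).

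Bid (ENSMUSG00000004446, chr6:120891930-120916853, minus strand), which links death receptors to the mitochondrion once caspase 8 cuts it, was at 20.9, 19.1 and 17.7 CPM without treatment and at 17.6, 17.7 and 18.3 CPM with rapamycin. The groups overlapped and the log2 fold change was −0.11 ± 0.11 (edgeR adjusted p = 0.423). On log2(TPM + 1) the sign turned, at 0.18 (adjusted p = 0.208). The deposited length of Bid was 2060 bases on average without treatment and 1834 with rapamycin. Bid overlaps 913 bases of the abundant gene Bcl2l13 on the opposite strand. The counts of both genes were whole in every library, so the authors' estimates show no reads divided between them.

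Transcript length matters here because changes followed it over the whole table. Between log2 fold change and length Spearman's rho was 0.51 in the 9979 genes whose log2 CPM averaged 2 or more, a description across genes that are not independent. The length correction fits this trend in each library and removes it. Each member can also be read beside genes of like length, taken as 10 equal groups. Bcl2, at 6698 bases in the longest group, stood at 0.98 beside a group median of 0.25. Bax, in the shortest group, stood at −0.064 beside −0.32. Bcl2l11 stood at 0.43 and Mcl1 at 0.12 beside a median of 0.088 for their common group. Bcl2l1 at −0.59 and Bak1 at −0.40 stood beside −0.027, Bbc3 at 0.32 beside −0.13, and Bad at −0.57 beside −0.19. With the correction 4 members were called higher (Bcl2, Bcl2l11, Bbc3 and Bax), beside 20.2% of all genes, and 2 lower (Bcl2l1 and Bak1), beside 18.3% (38.5% in either direction). On log2(TPM + 1), 4 were called higher (Bcl2, Mcl1, Bcl2l11 and Bbc3), beside 22.8%, and 2 lower (Bcl2l1 and Bak1), beside 9.63% (32.4% in either direction), while the median of all genes moved to 0.086.

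**Figure D2:**
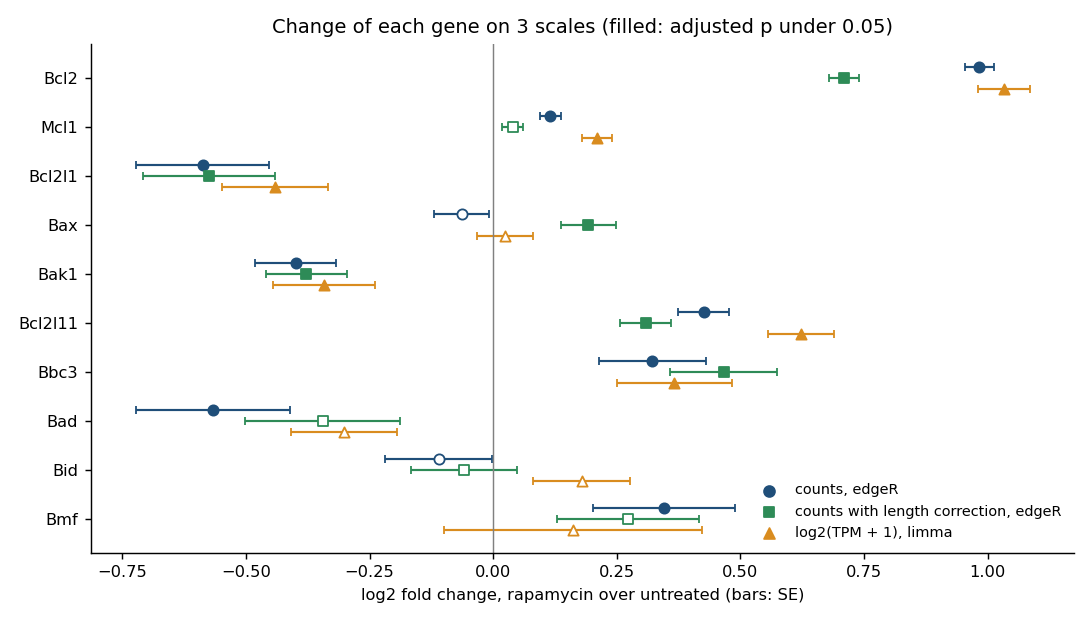
Log2 fold change, rapamycin over untreated (x axis, bars are SE), for each gene from counts, from counts with the length correction and from log2(TPM + 1); filled symbols have an adjusted p under 0.05. Bcl2, Bcl2l11 and Bbc3 lie above 0 and Bcl2l1 and Bak1 below 0 with filled symbols on all 3 scales, while Bax and Bid change sign.

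Levels of different genes can be compared only per length, so deposited TPM (transcript abundance scaled for length and depth) was used. In untreated cells Mcl1 led at 259 ± 3.80 TPM (mean ± SD, n = 3, as are the levels that follow), and Bax came next at 139.8 ± 7.24 TPM. Bcl2 followed at 39.0 ± 1.09 TPM, Bak1 had 25.8 ± 2.11 TPM and Bcl2l11 23.1 ± 0.968 TPM, and the ranges of the last pair overlapped. Bbc3 had 19.0 ± 1.40 TPM, Bad 15.3 ± 1.41 TPM and Bid 13.9 ± 0.956 TPM, with the ranges of Bad and Bid overlapping. Bcl2l1, at 8.89 ± 0.564 TPM, and Bmf, at 4.53 ± 1.89 TPM, were the lowest. Mcl1 thus stood well above the other guardians and Bax well above Bak1.

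With rapamycin the order began with the same genes, Mcl1 at 299.9 ± 5.79 TPM, Bax at 142 ± 8.04 TPM and Bcl2 at 80.7 ± 2.53 TPM. Bcl2l11, at 36.0 ± 1.21 TPM, and Bbc3, at 24.9 ± 3.66 TPM, now had higher means than Bak1, at 20.2 ± 2.27 TPM, although the ranges of Bbc3 and Bak1 overlapped. Bid had 15.9 ± 1.40 TPM, Bad 12.2 ± 1.15 TPM, Bcl2l1 6.28 ± 0.364 TPM and Bmf 5.02 ± 1.07 TPM. The TPM of Bmf ran from 2.85 to 6.58 within the untreated group while its CPM ran only from 8.47 to 9.56, because its deposited length ran from 2025 to 4642 bases there. For Bmf the level per length was therefore much less certain than the read count.

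**Figure D3:**
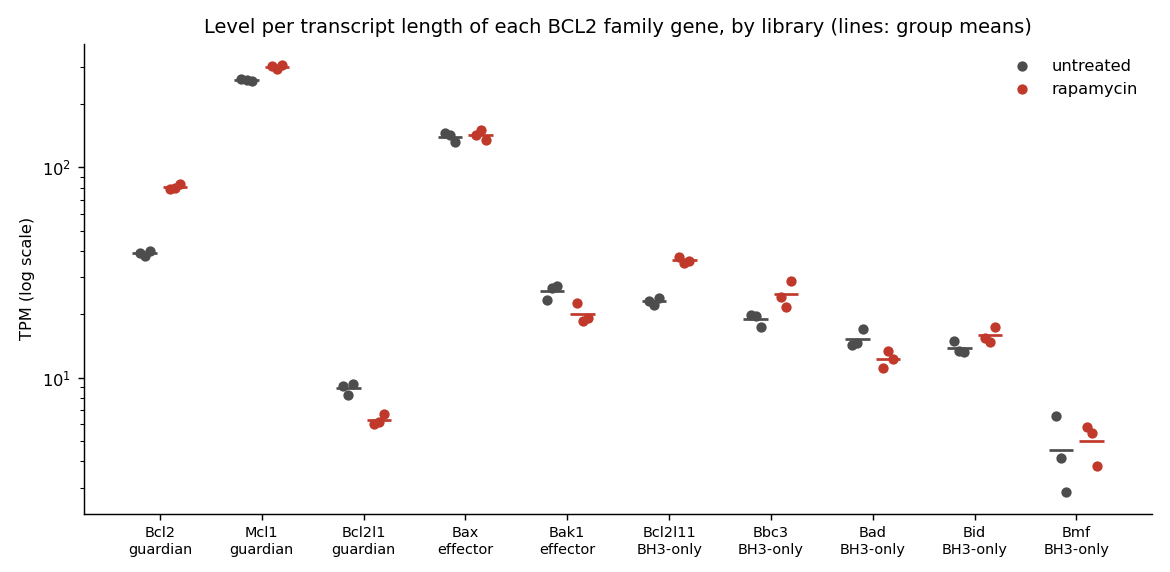
Level per transcript length in TPM (y axis, log scale) of each gene in every library (points; lines are group means), ordered by role. Mcl1 and Bax stand highest in both groups, Bcl2 moves from 39.0 to 80.7 TPM, and the points of Bmf are scattered within each group.

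Ratios of TPM between members are given as descriptions, with no test. Bcl2 to Bcl2l11 was 1.69, 1.71 and 1.67 in untreated and 2.11, 2.28 and 2.34 in rapamycin libraries, so that the ratio was higher in every treated library although both genes rose. Mcl1 to Bcl2l11 went the other way, from 11.2 ± 0.554 to 8.33 ± 0.231. Bcl2 to Mcl1 went from 0.150 ± 0.00544 to 0.269 ± 0.00699 and Bcl2 to Bax from 0.279 ± 0.0210 to 0.570 ± 0.0478. Neither pair overlapped between the groups. The trend of changes with transcript length was not removed from these ratios, and Bcl2 is the longest member and Bax the shortest. With the length correction Bcl2 stood at 0.71, Mcl1 at 0.039 and Bax at 0.19. On log2(TPM + 1) they stood at 1.03, 0.21 and 0.023, so the rise of Bcl2 over both was smaller with the correction. Bax to Bak1 went from 5.47 ± 0.708 to 7.12 ± 0.935, with the highest untreated library at 6.23 and the lowest rapamycin library at 6.26.

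Summed by role, the guardians had 307 ± 3.65 TPM without treatment and 387 ± 7.77 TPM with rapamycin. The BH3-only genes had 75.8 ± 2.79 and 94.0 ± 3.95 TPM. The sum of guardians over the sum of BH3-only genes was 4.05 ± 0.0996 and 4.12 ± 0.0907, and the groups overlapped. The effectors had 166 ± 5.80 and 162 ± 8.03 TPM, also overlapping, and their part of the family's RNA went from 30.2 ± 0.653% to 25.2 ± 1.39%. That fall was read from TPM only and may depend on the scale. The length correction put Bax at 0.19, above Mcl1 at 0.039, and Bcl2 at 0.71. Single ratios with Bcl2 were thus higher in all rapamycin libraries, while the ratio of the sums was not set apart. The sum of guardians was mostly Mcl1, at 259 TPM without treatment and 299.9 TPM with rapamycin, so that ratio says little of Bcl2 and Bcl2l1.

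**Figure D4:**
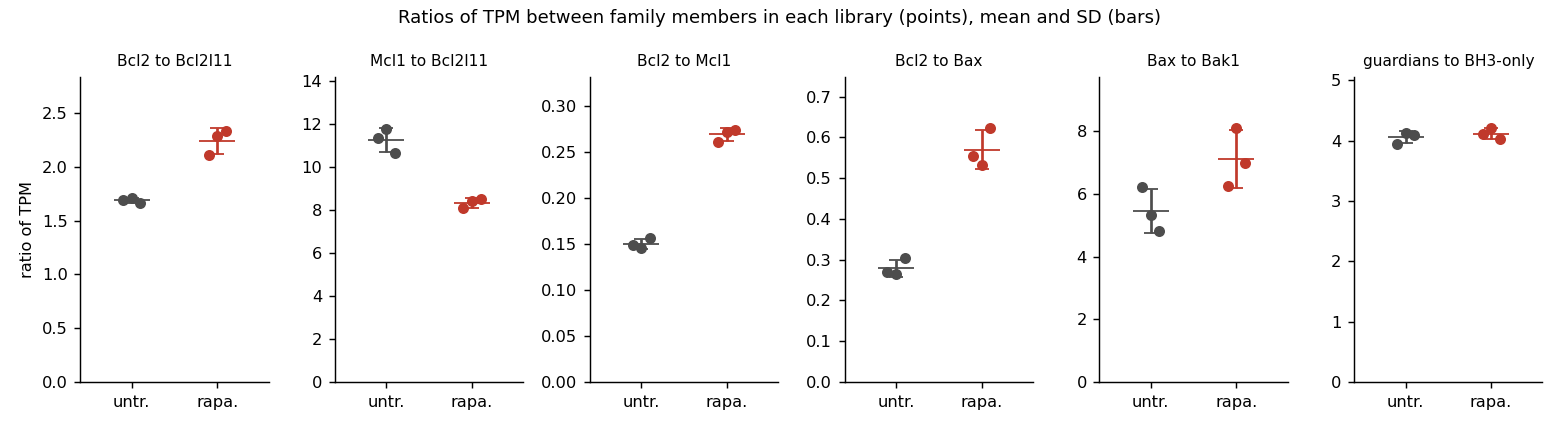
Ratios of TPM (y axes, starting at 0) between members in each untreated and rapamycin library (points), with mean and SD (bars). The ratios of Bcl2 to Bcl2l11, Mcl1 and Bax are higher and that of Mcl1 to Bcl2l11 lower in all rapamycin libraries, while summed guardians over summed BH3-only genes overlap, at 4.05 and 4.12.

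FOXO factors are known inducers of BIM and PUMA, so the promoters of the 10 genes were searched for the core FOXO motif GTAAACA or its reverse complement TGTTTAC (both strands, 1 motif, so no overlap with another). The RefSeq table on GRCm38.p6 holds 18 promoters of the 10 members, each from 250 bases before to 50 after a start site. The motif was found in 2 of the 18, and in 3.65% of all 32851 promoters. The hits belong to Bcl2l11 and Bbc3, which both rose, and are shown with the motif in capitals.
Bcl2l11: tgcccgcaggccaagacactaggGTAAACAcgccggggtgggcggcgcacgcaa
Bbc3: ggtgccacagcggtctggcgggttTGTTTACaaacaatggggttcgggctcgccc
The first stretch is chr2:128125788-128125841, plus strand, where the motif begins 227 bases before a start site. The second is chr7:16310070-16310124, plus strand, where it begins 167 bases before 1 of the start sites of Bbc3 and outside the annotated exons of the gene. A match describes letters in a window and does not show binding. Mcl1, Bcl2 and Bmf, which also rose, had no match in these windows. Of the factors themselves, Foxo1 fell from 466 ± 6.40 to 415 ± 6.24 CPM, by 0.17 on the log2 scale (edgeR adjusted p = 4.17e-08). With the length correction the fall was 0.51 (adjusted p = 6.27e-26), and on log2(TPM + 1) the value was −0.076 and not called (adjusted p = 0.231). Foxo3 rose by 0.15 (adjusted p = 0.00471), was at 0.29 on log2(TPM + 1) (adjusted p = 0.0477), and was at −0.11 and not called with the length correction (adjusted p = 0.0624). Trp53, another regulator of Bbc3, rose by 0.086 (adjusted p = 0.0270). Its value was 0.15 with the length correction (adjusted p = 2.45e-04) and 0.13 on log2(TPM + 1) (adjusted p = 0.0237). In edgeR with effective-length offsets Trp53 stood at 0.016 and was not called (adjusted p = 0.805).

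Beyond the 10 genes, 69 further genes of the apoptosis pathway were listed by role, and 60 of them were tested. Of these 16 rose and 23 fell, beside 24.1% and 23.3% of all genes, with a median of −0.072 beside −0.012 over all genes. The number of falls depended on the scale. With the length correction 15 were called lower, beside 18.3% of all genes. On log2(TPM + 1) 3 were called lower and 17 higher, beside 9.63% and 22.8% of all genes. The BCL2 relatives Bcl2l10, Bok, Hrk and Bcl2a1a had at most 1 read in any library. Bcl2l2, the gene of the guardian BCL-W, was at 4.14 ± 0.531 and 3.58 ± 0.785 CPM and did not pass (adjusted p = 0.480). Bcl2a1b, 1 of several nearly identical copies of the guardian gene A1, fell by 0.61 on the log2 scale (edgeR adjusted p = 0.00321, and 0.158 with the length correction). Reads may be split between the copies, which together had 9.88 ± 0.680 CPM without and 7.26 ± 1.17 CPM with rapamycin. The BH3-only gene Pmaip1, coding for NOXA, was at 2.46 ± 0.769 and 1.92 ± 0.260 CPM and did not pass (adjusted p = 0.376). Of 4 distant relatives tested, the mitophagy receptor gene Bnip3l rose by 0.23 (0.49 on log2(TPM + 1)). In edgeR with effective-length offsets Bnip3l stood at 0.39 and was not called (adjusted p = 0.0604). Bcl2l12 changed by −0.41, a call lost with the length correction (−0.20, adjusted p = 0.193) and without rapamycin replicate 2 (−0.28, adjusted p = 0.0585).

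In the list of mitochondrial release and the apoptosome 8 of 11 genes fell and 1 rose, beside 23.3% lower and 24.1% higher among all genes. The 1 that rose was Apaf1, the apoptosome scaffold, by 0.24 (edgeR adjusted p = 0.00321). With the length correction Apaf1 stood at 0.019 and was not called, and 6 genes were lower, beside 18.3% of all genes. The list's median was −0.31, or −0.21 with the correction. Endog, a mitochondrial nuclease, fell from 13.3 ± 0.356 CPM to 6.01 ± 0.319 CPM with rapamycin, and its log2 fold change was −1.14 ± 0.15 (edgeR adjusted p = 3.48e-09). The channel genes Vdac1 and Vdac2 changed by −0.36 and −0.29, and Cycs, which codes for cytochrome c itself, by −0.35. On log2(TPM + 1) Endog was the only one of the 11 still called, on a scale where 9.63% of all genes were lower. Of 8 caspase and nuclease genes 3 rose and 1 fell, beside 24.1% and 23.3% of all genes. Among them Casp2 rose by 0.27 and Casp8, the initiator at death receptors, by 0.13, while the inhibitor of the caspase-activated nuclease, Dffa, changed by −0.27. On log2(TPM + 1) Dffa stood at −0.13 and was not called (adjusted p = 0.313). In edgeR with effective-length offsets all 3 lost their calls: Casp2 (0.16, adjusted p = 0.0800), Casp8 (0.13, adjusted p = 0.0642) and Dffa (adjusted p = 0.0791).

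Of 4 tested genes for inhibitors of apoptosis proteins 2 rose, beside 24.1% of all genes. Birc6, a very large protein that blocks caspases, had 682 ± 8.52 CPM without and 1034 ± 4.27 CPM with rapamycin, a rise of 0.60 ± 0.019 on the log2 scale (0.34 with the length correction). Xiap rose by 0.16, which turned to −0.090 and was not called after length correction (adjusted p = 0.103). On log2(TPM + 1) Xiap was at 0.24 and called (adjusted p = 0.0338). Of the 4 genes 2 were higher with the length correction, beside 20.2% of all genes, and 3 on log2(TPM + 1), beside 22.8%. In the death receptor branch 5 of 9 fell and 1 rose, beside 23.3% and 24.1% of all genes. Cflar, whose product FLIP holds back caspase 8, rose by 0.28 ± 0.029 from 225 ± 4.78 to 273 ± 5.29 CPM. The adaptor gene Fadd changed by −0.47, the death ligand gene Tnfsf10 by −0.43 and the receptor gene Tnfrsf1a by −0.36. None of the 5 falls was called on log2(TPM + 1), where 9.63% of all genes were lower. Among 20 tested regulators of the family 8 rose and 7 fell, beside 24.1% and 23.3% of all genes. With the length correction 5 were higher and 4 lower, beside 20.2% and 18.3% of all genes. On log2(TPM + 1) 9 were higher and 1 lower, beside 22.8% and 9.63%. The rises were led by Pim1 (0.94), a kinase that inactivates BAD, and Il7r (0.82), the receptor chain for interleukin 7. Huwe1 and Usp9x, which code for a ligase that marks MCL1 for destruction and a protease that removes such marks, rose by 0.65 and 0.47, or by 0.34 and 0.21 with the length correction.

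**Figure D5:**
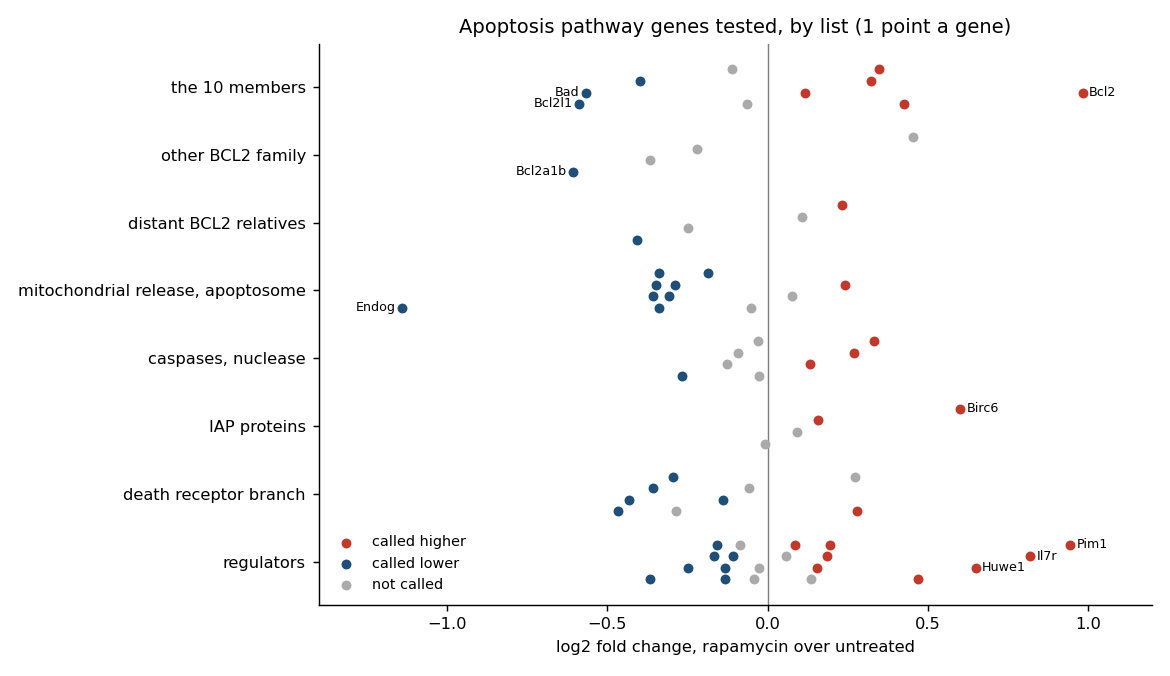
Log2 fold change, rapamycin over untreated (x axis), of the 10 members and of the 60 other pathway genes tested, by list (y axis; 1 point a gene, coloured by the edgeR call). On these uncorrected counts Bcl2 is the farthest to the right, whereas with the length correction Pim1 (0.96) and Il7r (0.76) exceed Bcl2 (0.71); Endog is the farthest to the left, and the apoptosome list lies mostly below 0.

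The genes whose values over the 6 libraries lay nearest to those of Bcl2, by Euclidean distance of centred log2 CPM, were Cmah (0.0843), Thra (0.0915) and Peak1 (0.106). For Bcl2l1 they were Psma5 (0.0560), Acsl5 (0.0580) and Thy1 (0.0613).

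Untreated libraries held 9712671 to 11393317 expected counts and rapamycin libraries 8757280 to 9315370, so 3 counts were worth 0.263 to 0.343 CPM. Deposited lengths exceeded effective lengths by at most 239 to 240 bases without and 251 to 257 bases with rapamycin, a measure of fragment length. Depth and fragment length thus differed between the groups, and their part in the trend with transcript length was not tested. Within a group the variance of counts was on average 1.87 to 1.89 times counting noise, with medians over genes of 1.08 and 1.12. Since nothing states that libraries came from separate mice, each p-value here speaks only of library-to-library spread, possibly technical. The label was checked against markers, whose counts of calls stand beside 24.1% higher and 23.3% lower among all genes. T cell identity genes summed to between 4393 and 4454 CPM without and between 3503 and 3548 CPM with rapamycin, with 7 of 8 lower. The naive markers were called in 6 of 6 cases, 5 of them higher. Other cells were present too: B cell markers summed to between 567 and 601 CPM without and between 553 and 584 CPM with rapamycin, with 2 of 8 lower. Memory and effector markers fell in 7 of 7 tested, from sums of 199 to 204 CPM to sums of 104 to 107 CPM. Myeloid markers fell in 9 of 9 tested, from 74.3 to 78.3 CPM to 32.4 to 34.5 CPM. Both CD8 markers rose, from 19.1 to 20.5 CPM to 87.9 to 91.0 CPM. Plasma cell markers went from 69.2 to 72.2 CPM to 56.2 to 60.4 CPM, with 3 of 5 lower and 1 higher. NK cell markers went from 71.1 to 74.2 CPM to 68.1 to 69.4 CPM, with 3 of 7 tested lower and 1 higher. These sums were carried by their most abundant genes and hid larger moves, such as Jchain, from 11.6 to 0.788 CPM, and Gzma, from 7.79 to 2.18 CPM. Regulatory T cell markers were at 48.4 to 52.5 and 46.7 to 54.8 CPM, with 2 of 6 higher and 1 lower. Erythroid markers were at 7.99 to 11.3 and 2.62 to 3.13 CPM, and platelet markers at 1.90 to 3.66 and 4.29 to 5.30 CPM. The platelet sum was almost all Itga2b, since Pf4, Ppbp and Gp9 had 3 counts or fewer in every library. The part of these cells in the changes of the BCL2 family genes was not tested.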

How the data were processed

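STAR and RSEM are the tools, and mm10 the genome build, per the submitters' processing notes. Tool versions are not given in the sources used here. Each of the deposited tables has 55487 genes with, per the file headers, a length, an effective length, expected counts, TPM and FPKM. Expected counts as the authors deposited them divide reads that several genes share. The authors' TPM and FPKM are scaled for effective length and depth, and FPKM served only as an alternative. Symbols came from GENCODE vM21 on GRCm38, which matched 55141 identifiers. Where a symbol had 2 records (Ddit3), the one with more reads was used.

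Expected counts were rounded, filtered with edgeR's filterByExpr (11950 genes left), scaled by TMM and compared with edgeR's quasi-likelihood test (robust, group as the only term), with Benjamini-Hochberg adjustment over all genes and a threshold of 0.05. The SE is the log2 fold change over the square root of F. The length correction was an offset: per library, a spline on log2 length (5 degrees of freedom). The members, lists, marker lists and alternatives were chosen with earlier results of these data known. The text names all 10 members, up to 4 called genes a list by smallest adjusted p (or up to 2 by level), 3 nearest genes, and, chosen after their values were seen, Apaf1, Bcl2l2, Foxo1, Foxo3, Trp53 and the untested relatives. Some genes the rule picks are not reported here. The fits were tested on simulated data. Versions were DESeq2 1.42.0, edgeR 4.0.16 and limma 3.58.1 in R 4.3.3, with matplotlib 3.10.9 for figures in Python 3.11.15.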

Additional observations from a re-analysis of the deposited data

How the results depend on the processing

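The 20 alternatives to the fit were other scaling factors, other filters, DESeq2, limma, length treatments, the replicate number as a block, a minimum fold and leaving out each library. Bcl2, Bcl2l1 and Bcl2l11 kept direction and call under all of them, with adjusted p of at most 2.12e-05, 0.0186 and 0.00272. The labels do not say whether replicate numbers pair the libraries. Correlations of same-numbered deviations were −0.0249, −0.0092 and −0.0311. With a median spread of only 1.08 and 1.12 times counting noise, such values cannot decide whether libraries were paired. With the replicate block 5 members were called higher and 3 lower, and 2850 and 2743 of all genes, so the block changed no call of a member. With the replicate block and the length correction together, Mcl1 (0.039), Bad (−0.35) and Bmf (0.27) lost their calls and Bax turned to 0.19. The length correction alone gave the same 4 values and turned Xiap from 0.16 to −0.090 (−0.089 with the block too). It left 15 other pathway genes lower in place of 23, and 2184 of all genes in place of 2785. On log2(TPM + 1) Bax turned to 0.023 and Bid to 0.18, and Bad (−0.30) and Bmf (0.16) lost their calls; 3 other pathway genes and 1151 of all genes were then lower. On log2(TPM + 0.1) these were 0.024, 0.19, −0.32, 0.20, 3 and 1137. Effective-length offsets left Bbc3 (0.27), Bad (−0.44) and Bmf (0.065) uncalled and turned Bid to 0.076. They left 3 members higher, 9 other pathway genes higher and 14 lower, and 1801 of all genes lower. A test against a fold of 1.2 left Mcl1 (0.12), Bak1 (−0.40), Bbc3 (0.32) and Bmf (0.35) uncalled, with 2 members higher, 5 other pathway genes higher and 2 lower, and 990 higher and 894 lower of all genes. Bmf was also uncalled with upper-quartile factors (0.30), no composition factors (0.30), no filter (0.33) and DESeq2 (0.35). Leaving out 1 library gave 0.26 to 0.36 for Bbc3, 0.30 to 0.39 for Bmf and 3 to 5 members called higher, the 3 without untreated replicate 2. With FPKM in place of TPM the log2 changes of the sums were 0.20 for guardians, −0.16 for effectors and 0.18 for BH3-only genes, in place of 0.33, −0.029 and 0.31. Leaving out 1 library gave −0.058 to 0.011 for the effectors, the last without rapamycin replicate 3. Low counts limit Bmf, Bad and Bcl2l1, with 59 to 158 reads a library.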
